A study of Mus musculus with 28 samples.

Results

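The antioxidant and NRF2 pathway genes described here are 40 genes of the 21938 protein-coding genes in the annotation, chosen by name for their roles and not by any measured value. They fall into 7 regulators of the pathway, 13 glutathione genes, 10 thioredoxin genes, 3 metallothioneins, 4 genes that remove superoxide and peroxide, and 3 genes of quinone and iron handling. Open chromatin around them was read from ATAC-seq, in which a transposase cuts DNA where it is not covered by nucleosomes, performed on Müller cells, the radial glia of the retina. The cells came from 6-month-old mice of a control group, labelled WT, and from db/db mice of the same age, in which the leptin receptor gene, Lepr, is mutated and which become obese and diabetic. According to the study's methods, wild type and heterozygous db/+ mice both served as controls, and animals of both sexes on a BKS background were used. Müller cells were obtained by magnetic sorting as the CD29-positive fraction after CD11b-positive and CD31-positive cells had been taken out, and this fraction may hold some astrocytes. The data are 1 list of accessible regions per genotype, each attached to replicate 1 of its group, so that a difference between the lists has no replicate check and carries no p-value.

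NRF2, encoded by Nfe2l2, is the main transcription factor of the response to oxidants and electrophiles. KEAP1 holds it in the cytoplasm and hands it to the proteasome until oxidants modify KEAP1, after which NRF2 pairs with a small MAF protein and binds the antioxidant response element in front of its target genes, a site that BACH1 can occupy instead. The targets make and recycle glutathione and thioredoxin, trap metals and iron and reduce quinones. In the retina, Müller cells are known as a store of glutathione for the neurons they surround.

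The lists held 46189 control regions and 64883 db/db regions after overlapping entries had been merged, with a median signal of 10.6 and 8.60, where signal is the fold enrichment deposited for the summit of a region. Read depths were not analysed here. Of 10 Müller cell markers, all 10 had an open promoter in both lists, meaning a region within 1 kb of a coding transcript start. Of 10 rod photoreceptor genes 9 had one in the control list and 4 (Crx, Nrl, Rcvrn and Sag) in the db/db list, and 16 of their 32 control regions had no counterpart in db/db. Among microglial genes 1 of 6 (P2ry12) was open in each list, and among vascular genes 3 of 6 (Kdr, Pdgfrb and Tek). Rod chromatin was thus more visible in the control list. Its part in the values below was not tested, and in a sorted population a smaller share of cells with an open site cannot be told apart from a less open site in each cell.

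To see which antioxidant promoters carry the elements these factors bind, the core of the antioxidant response element, TGACNNNGC, was searched on both strands in the RefSeq promoter windows, which run from 250 bases before to 50 bases after a start (GRCm38.p6). Of the 40 genes, 35 had such a window, and 10 of these 35 genes (28.6%) held the core, against 2596 of 17492 genes overall (14.8%). Counted by window, 10 of 46 antioxidant promoters (21.7%) and 2759 of 21263 promoters overall (13.0%) held it. The matches are shown because they place the element inside open chromatin: each of the 10 windows overlapped an accessible region in both lists. This overlap does not set the core apart, since 39 of the 40 genes had an open promoter in control and all 40 in db/db. Each stretch is written 5′ to 3′ along the gene's strand, with the core in capitals. It reads as TGACNNNGC or, where the element lies on the other strand, as its reverse complement GCNNNGTCA.
Nfe2l2, chr2:75704885-75704913, minus strand: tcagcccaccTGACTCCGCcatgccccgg
Mafg, chr11:120633751-120633779, minus strand: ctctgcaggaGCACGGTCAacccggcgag
Mafk, chr5:139791513-139791541, plus strand: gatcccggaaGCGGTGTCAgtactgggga
Gclm, chr3:122245413-122245441, plus strand: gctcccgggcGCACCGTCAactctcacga
Gstm5, chr3:107895802-107895830, plus strand: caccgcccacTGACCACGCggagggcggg
Txnrd1, chr10:82859104-82859132, plus strand: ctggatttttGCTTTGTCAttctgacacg
Prdx1, chr4:116685456-116685484, plus strand: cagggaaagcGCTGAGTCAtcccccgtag
Srxn1, chr2:152105542-152105570, plus strand: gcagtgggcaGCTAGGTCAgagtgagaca
Mt2, chr8:94172529-94172557, plus strand: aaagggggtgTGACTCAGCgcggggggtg
Sod1, chr16:90220696-90220724, plus strand: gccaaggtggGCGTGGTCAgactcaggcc
The regulators Nfe2l2, Mafg and Mafk appear in this list themselves, so a part of the pathway's own control genes carries the core. The core began between 240 bases before the start, in Nfe2l2, and 28 bases after it, in Srxn1. Its centre lay 16 to 416 bases from the summit of the control region that held it, with a median of 102. In Mt2 and Prdx1 the match contained TGACTCA or its reverse complement TGAGTCA, the site of AP-1, so that these 2 of 10 matches belong to both motifs. A stricter core, the same letters followed by an A, left only Txnrd1 (2.86% of the antioxidant genes and 3.13% of all genes). A looser one, TGANNNNGC, was in 48.6% of them and in 45.5% of all genes, so that the difference between the shares was smaller with either string, and a comparison string with 4 free bases between TGAC and GC was found in 6 genes (17.1%, against 16.9% overall). A match is a description of the letters and not a measured binding site.

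The metal response element, bound by MTF1, was searched as the string TGCGCNC in the same windows and on both strands. This string leaves out any form of the element with another middle base. With that base free, as TGCNCNC, 48.6% of the antioxidant genes and 56.4% of all genes held a match. The string TGCGCNC was present in 7 of the 35 genes (20%), near the 21.6% of all genes that held it, and in 15.2% of their promoters against 19.6% overall. The same letters in another order, GTCGCNC, were also found in 7 genes, where 11.4% of all genes held them. The matches of Mt1 and Mt2, the classical metal-induced genes, and of Gclm, which held 3, are given with the core in capitals, as TGCGCNC or as its reverse complement GNGCGCA.
Gclm, chr3:122245409-122245435, plus strand: cggcgctcccGGGCGCAccgtcaactc
Gclm, chr3:122245475-122245501, plus strand: ggccggcaggGGGCGCAcgtccgcgcg
Gclm, chr3:122245574-122245600, plus strand: cccgcgggccTGCGCCCcgcccctggc
Mt1, chr8:94179099-94179125, plus strand: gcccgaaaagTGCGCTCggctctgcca
Mt2, chr8:94172480-94172506, plus strand: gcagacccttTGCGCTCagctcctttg
Mt2, chr8:94172612-94172638, plus strand: aattcgggtcGTGCGCAggcccagggg
In Gclm, the regulatory subunit of the enzyme that starts glutathione synthesis, the first metal core shares 3 bases with its antioxidant core. The other 4 genes with a metal core were Bach1, Gstm5, Srxn1 and Txnrd2. All 10 matches lay in windows that overlapped a region in both lists, 6 to 227 bases from the control summit with a median of 72.5. Nearly all promoters of the antioxidant genes were open, so this overlap is not particular to the metal core. With the looser string TGCNCNC, Mt2 held more matches than Gclm, and Mt1 and Mt3 held as many as Gclm.

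**Figure D1:**
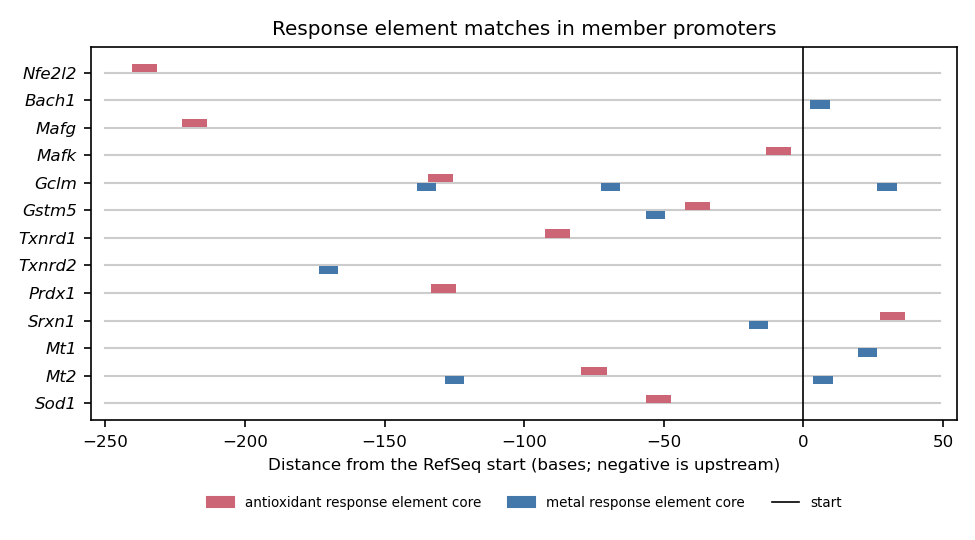
Positions of the antioxidant (red) and metal (blue) response element cores in the promoter windows of the 13 antioxidant genes that held either, in bases from the RefSeq start (vertical line; negative values are upstream). Antioxidant cores ran from 240 bases before the start in Nfe2l2 to 28 bases after it in Srxn1, and Gclm carried 1 antioxidant and 3 metal cores.

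Counting any annotated coding start, the promoters of the antioxidant genes were open almost without exception in both genotypes. In the control list 39 of 40 had an accessible region within 1 kb of a coding start (97.5%, 95% Wilson interval 87.1% to 99.6%), and in the db/db list 40 of 40 (100%, 91.2% to 100%). Over all coding genes the share was 58.5% in control and 61.4% in db/db. Coding genes with the same number of regions gave 80.5% and 83.4%, which corresponds to 32.2 and 33.4 of 40 genes. The intervals cover counting error only. With the 5′ end of each gene as its only start, 36 of 40 promoters were open in each list, so the counts above depend on starts inside genes. The share of all coding genes under this setting is not reported here.

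In strength these promoters lay near those of other coding genes. The signal of the strongest promoter region was placed among all regions of its own list as a percentile, so that 50 marks the middle of a list. The median of the antioxidant genes was at percentile 75.2 in control and 78.2 in db/db, beside 77.9 and 80.5 for all coding genes with an open promoter and 79.8 and 81.1 for those with equal numbers of regions. Because the db/db list holds more weak regions, percentiles were higher there by a median of 8.52 points over all shared regions, and they are therefore read within a list. The range within the pathway was wide, from Slc7a11 at percentile 7.02 to Prdx3 at 98.8 in control.

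**Figure D2:**
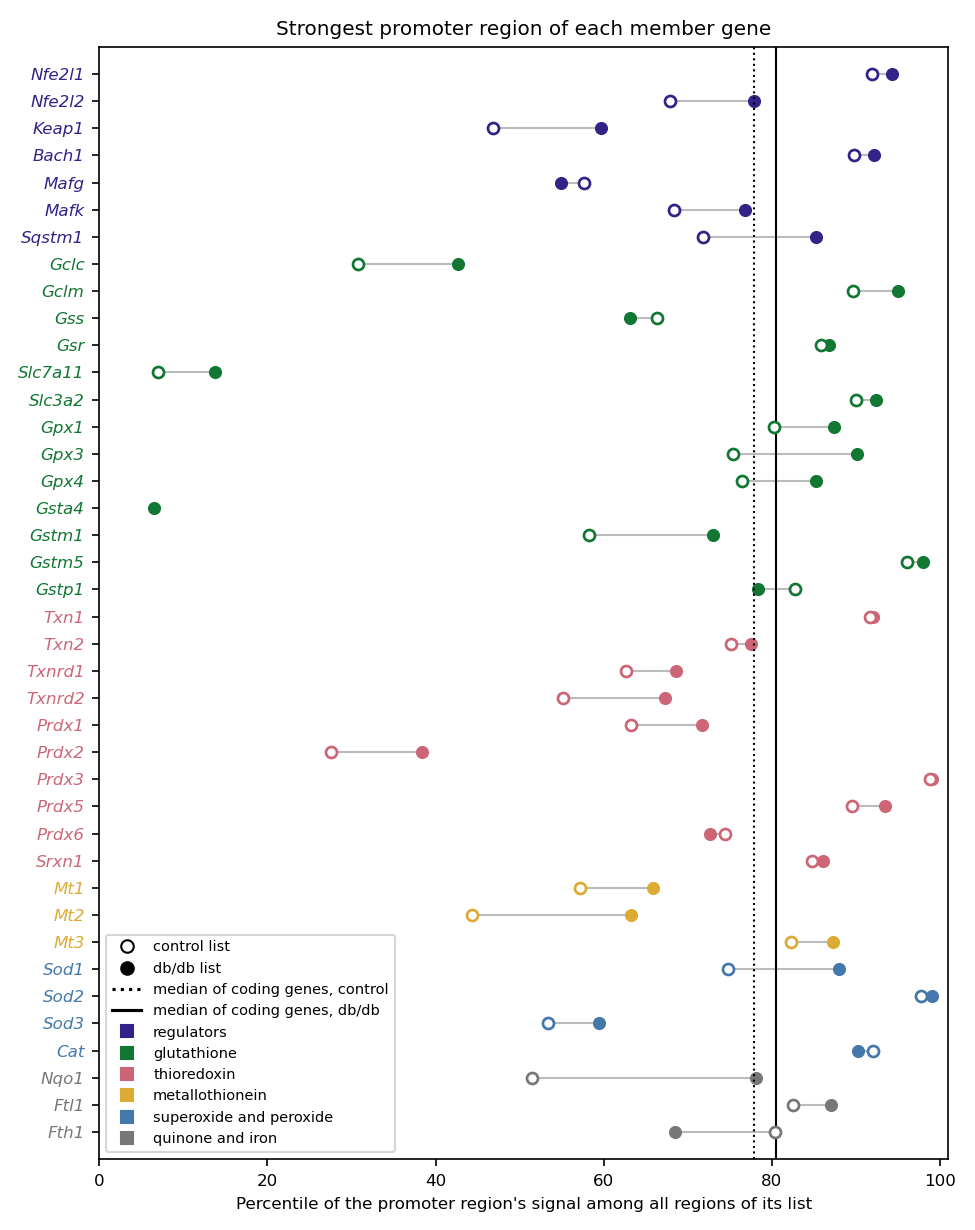
Percentile of the strongest promoter region of each of the 40 genes among all regions of its list, with open circles for the control list, filled circles for db/db and colours for the gene groups. Most genes sit right of percentile 50, Slc7a11, Prdx2 and Gclc sit far to the left in control, and Gsta4 has a db/db value alone; the dotted and solid lines are the medians of coding genes in control (77.9) and db/db (80.5).

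Among the regulators all 7 promoters were open in both lists, and their median was at percentile 68.4 in control and 77.9 in db/db. Nfe2l2 itself had a promoter signal of 13.2 in control and 13.1 in db/db, at percentiles 67.9 and 77.9. Keap1, its inhibitor, was lower, with a signal of 10.2 and 9.86 at percentiles 46.8 and 59.7. The Keap1 promoter was thus near the middle of the control list and above it in db/db, while that of Nfe2l2 was above the middle of both lists. The strongest regulator promoters were those of Nfe2l1, a relative of NRF2 known for proteasome gene control, with signals of 19.5 and 18.7, and of the repressor Bach1, with signals of 18.6 and 17.5. Sqstm1, whose product p62 draws KEAP1 into autophagy, had a signal of 13.9 in control and 15 in db/db, and this region also covers a start of the neighbouring gene Mgat4b. Of the small MAF partners, Mafk had signals of 13.3 and 12.8 and Mafg of 11.6 and 9.22.

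The glutathione genes held the widest range. Slc7a11, which imports cystine for glutathione synthesis, had the weakest promoter of the pathway in control, with a signal of 5.37 (percentile 7.02) and 5.06 in db/db (percentile 13.8). Slc3a2, the heavy chain that carries SLC7A11 to the membrane, was at 18.7 and 17.7 (percentiles 90.0 and 92.4). The partners of 1 transporter therefore lay at opposite ends of the scale. The same held for the enzyme that joins glutamate to cysteine: its catalytic subunit Gclc had signals of 8.35 and 7.79 (percentiles 30.8 and 42.7), while its regulatory subunit Gclm had 18.6 and 19.2 (percentiles 89.7 and 95). Gss, which adds glycine to complete glutathione, had signals of 12.9 and 10.4, and Gsr, which reduces oxidised glutathione, 17.3 and 15.5. The glutathione peroxidases Gpx1, Gpx3 and Gpx4, which use glutathione to reduce peroxides, lay between percentiles 75.4 and 80.3 in control and between 85.2 and 90.1 in db/db. Of the transferases, which attach glutathione to electrophiles, Gstm5 had the strongest promoter with signals of 22.3 and 22.0, and Gstp1 and Gstm1 followed at percentiles 82.8 and 58.3 in control.

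Gsta4, a transferase for lipid peroxidation products such as 4-hydroxynonenal, was the exception to open promoters. It had no region in the control list within the gene or 5 kb of it. In the db/db list it had a promoter region with a signal of 4.23 (chr9:78191767-78192181, percentile 6.56) and an intronic one with a signal of 3.66 (percentile 3.47), both among the weakest of that list. The promoter region lay at a coding start inside the gene, which begins at base 78182774.

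The thioredoxin genes were open at all 10 promoters in both lists, with medians at percentiles 74.8 and 75.1. Prdx3, the peroxiredoxin of mitochondria, had the strongest promoter of the whole pathway in control, with signals of 25.5 and 24.1 (percentiles 98.8 and 99.1). Prdx2, a cytosolic peroxiredoxin, had the weakest of the group, with signals of 8 and 7.35 (percentiles 27.6 and 38.4), in a region that also spans a start of Rnaseh2a. The thioredoxins Txn1 and Txn2 were at percentiles 91.7 and 75.2 in control, above their reductases Txnrd1 and Txnrd2 at 62.6 and 55.2. Srxn1, which repairs over-oxidised peroxiredoxins, was at 84.8 in control and 86.1 in db/db. The other peroxiredoxins stood at 63.2 for Prdx1, 89.5 for Prdx5, whose region also covers a start of Trmt112, and 74.4 for Prdx6 in control.

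Of the metallothioneins, small cysteine-rich proteins that bind zinc and copper, Mt3, the form typical of the nervous system, had the strongest promoter, with signals of 16.3 in control and 15.6 in db/db. Mt1 had signals of 11.6 and 10.8. Mt2 had signals of 9.88 and 10.4, at percentiles 44.3 and 63.2. All 3 genes are neighbours on chromosome 8, and their promoters nevertheless spread from percentile 44.3 to 82.3 in control.

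The superoxide dismutases turn superoxide into hydrogen peroxide, which catalase (Cat) breaks down. The mitochondrial Sod2 had signals of 23.9 and 24.1 (percentiles 97.7 and 99.1), the cytosolic Sod1 14.5 and 15.8, and the secreted Sod3 11.1 and 9.81. Cat had signals of 19.6 and 16.7. Sod2 and Prdx3 thus stood at the top of the pathway in both lists. Both are mitochondrial, but so are Txn2 and Txnrd2, which were at percentiles 75.2 and 55.2 in control and 77.5 and 67.3 in db/db. Nqo1, the quinone reductase used as a standard readout of NRF2 activity, had a signal of 10.8 in control and 13.1 in db/db. The ferritin chains, which store iron, were at 16.3 and 15.5 for Ftl1 and at 15.8 and 11.2 for Fth1.

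The summit of the strongest promoter region, the base deposited as its highest point, lay close to the start in most of the 39 genes open in both lists. Its median distance was 42 bases, and 32 of 39 summits were within 100 bases. Between the lists the summit moved by a median of 5 bases, and in 36 of 39 genes by no more than 20 bases. The exceptions were Fth1, where the highest summit lay 97 bases apart, Gpx1 with 56 bases and Mafk with 35. The opening of most of these promoters therefore peaked at nearly the same base in both genotypes. Summits of other coding promoters were not measured in this way, so these counts are not shown to be particular to the antioxidant genes.

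Around the 40 genes, meaning the gene and 5 kb to each side, there were 79 regions in the control list and 108 in the db/db list. Of the control regions 1 was absent from db/db, or 1.27% (95% Wilson interval 0.224% to 6.83%), against 4.16% of all control regions and 3.56% at coding genes with equal numbers of regions. Of the db/db regions 30 were absent from control, or 27.8% (20.2% to 36.9%), against 31.3% of all db/db regions and 24.7% at genes with equal numbers of regions. Both shares have intervals that hold the background, so that no departure of the antioxidant genes was detectable with this number of regions. When the db/db list was shortened to the length of the control list, the db/db-only share was 10.6%, beside 13% of all its regions. By group the db/db-only regions were 5 of 17 for the regulators, 13 of 41 for glutathione, 8 of 31 for thioredoxin, 1 of 5 for the metallothioneins, 1 of 6 for superoxide and peroxide, and 2 of 8 for quinone and iron.

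**Figure D3:**
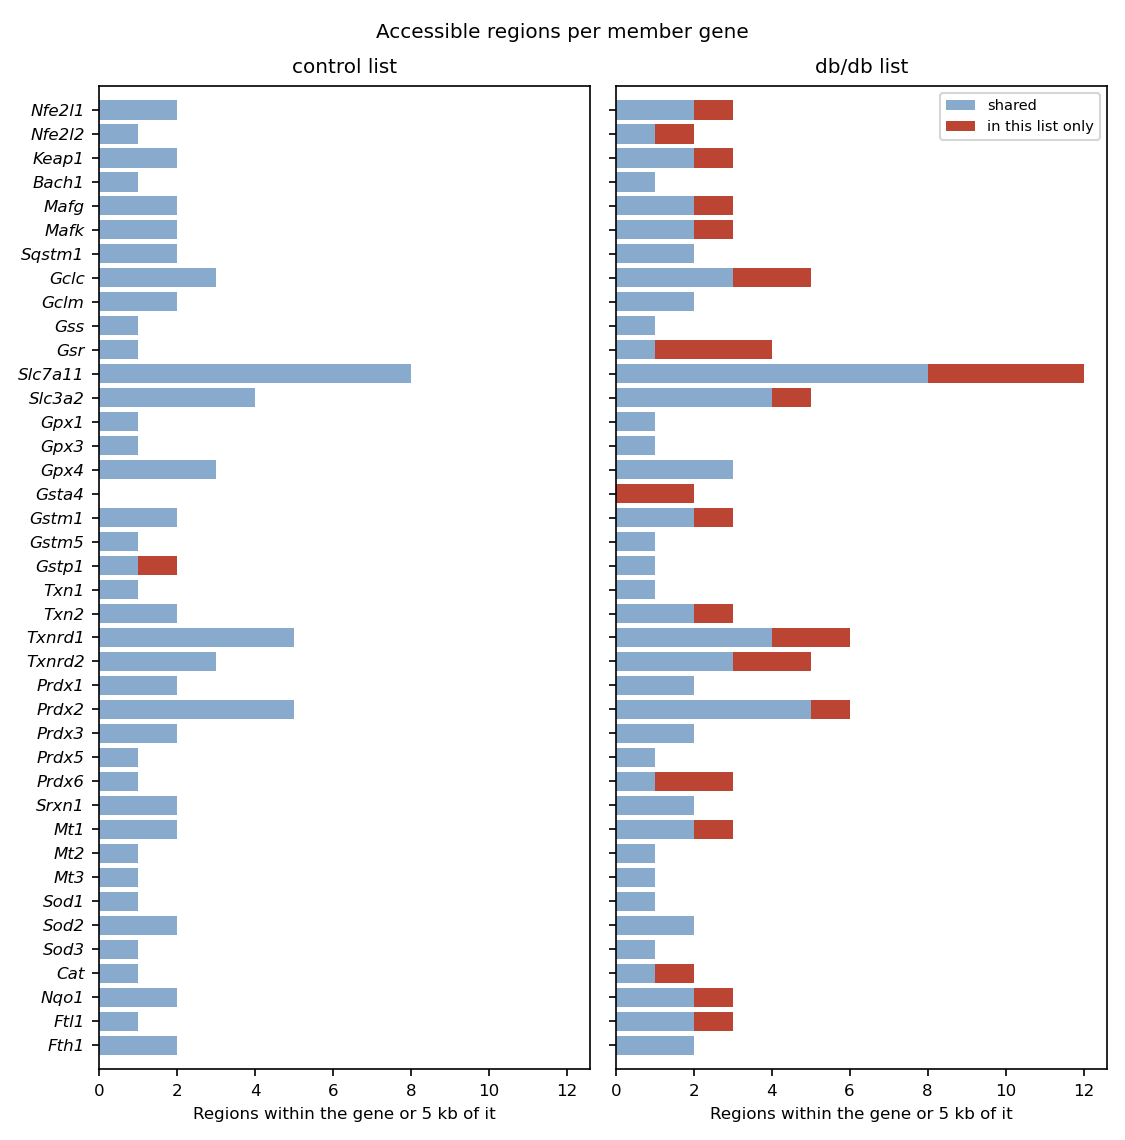
Number of accessible regions within each gene or 5 kb of it, for the control list (left) and the db/db list (right), with regions found in both lists in blue and those in that list alone in red. Slc7a11 has the most regions, 8 in control and 12 in db/db, and Gsr goes from 1 to 4; the control list has 1 red region, at Gstp1.

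The only control region without a db/db counterpart lay downstream of Gstp1 at chr19:4032675-4033045, 5067 bases from its start, with a signal of 11.2 at percentile 54.6. The 30 db/db-only regions belonged to 20 of the 40 genes and were mostly weak. Their signals ran from percentile 0.0894 to 72.1 of the db/db list with a median of 14.0, beside 23.5 for all db/db-only regions. Of the 30, 13 were below percentile 10 and 4 above percentile 50 (13.3%, against 13.9% of all db/db-only regions). By place 18 were in introns, 6 at promoters, 4 downstream and 2 in exons.

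The 4 above percentile 50 lay in introns of Gsr, Txnrd2, Txnrd1 and Txn2. In Gsr, the glutathione reductase, the region chr8:33660324-33660955 had a signal of 11.9 at percentile 72.1, and another 2 db/db-only regions at this gene stood at percentiles 32.1 and 38.6, so that Gsr had 1 region in control and 4 in db/db. In Txnrd2, the mitochondrial thioredoxin reductase, chr16:18451368-18452149 was at percentile 67.7. In Txnrd1, its cytosolic counterpart, chr10:82878825-82879431 was at percentile 60.2, and its nearest coding start is that of Eid3, 12578 bases away. In Txn2, the mitochondrial thioredoxin, chr15:77917116-77917513 was at percentile 57.5. Slc7a11 had 4 db/db-only regions, the strongest at chr3:50304206-50304498 and percentile 49.6. Its annotated span runs from 49892526 to 50443614 on chromosome 3, far longer than that of the other genes, and 1 of its regions in each list lies nearer to the start of Pcdh18. In all, 15 of the 79 control regions and 18 of the 108 db/db regions were closest to the start of a coding gene outside the pathway.

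To compare strength between genotypes, regions present in both lists with a single partner were ranked among the 43519 such regions of the whole series, since the db/db list holds many additional weak regions that push the percentile of every other region upwards. The change in rank is the db/db minus the control percentile on this scale. The antioxidant genes had 75 such pairs, and the other 3 control regions had none with a single partner, because 2 regions of Txnrd1 joined in db/db and 1 of Ftl1 split. The median change was -0.119 points (quartiles -4.37 and 1.91), beside -0.0758 for coding genes. At least 10 points higher in db/db were 3 of 75 regions (4%), against 13.3% of all shared regions, and at least 10 points lower were 7 (9.33%), against 12.8%. Ranked by the deposited −log10 p, 8 were higher and 4 lower, where 13.5% and 12.5% of all shared regions passed, so that which direction held more regions depended on the measure.

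The place of the regions bears on these shares. Within 1 kb of a coding start lay 65.4% of the shared antioxidant regions and 28.5% of all shared regions of the control list. Among promoter regions alone, 2 of 43 (4.65%) were at least 10 points higher and 5 (11.6%) lower, where coding promoters gave 6.32% and 12.6%. Away from every coding start, 1 of 27 regions (3.7%) was higher and 1 lower, against 16.1% and 12.3% of such regions at coding genes. At promoters the pathway was near its background in both directions, with an SD of the change of 7.75 points against 8.48 for coding promoters.

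**Figure D4:**
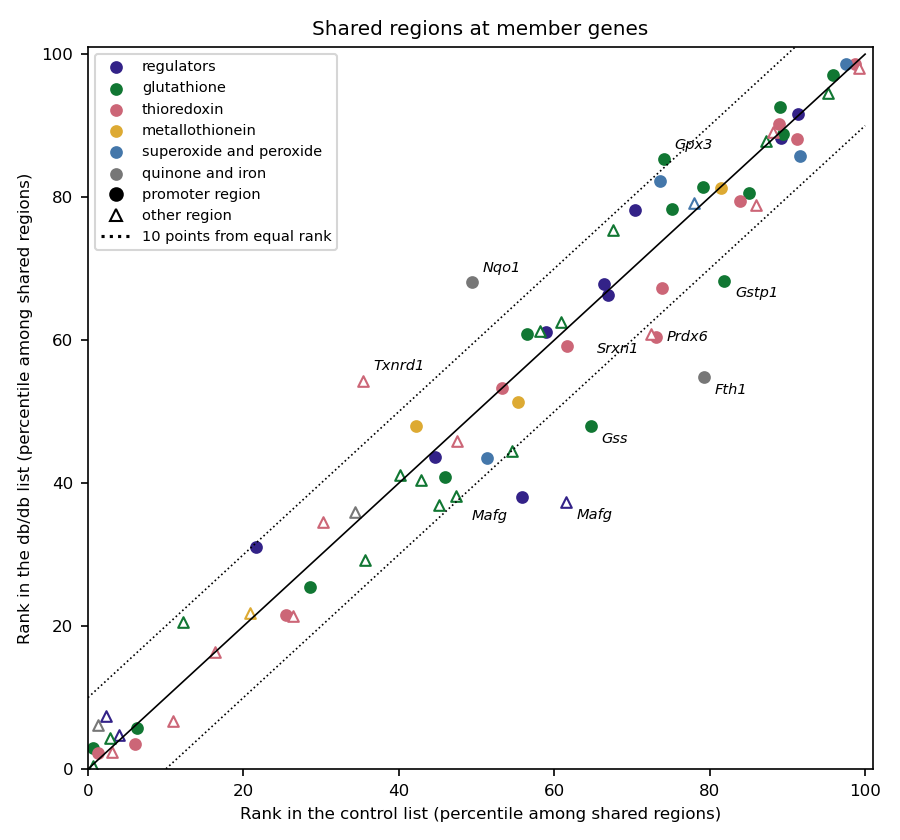
Rank of the 75 shared regions of the antioxidant genes in the control list (horizontal) and the db/db list (vertical), both as percentiles among 43519 shared regions, with filled circles for promoter regions, triangles for other regions and colours for gene groups. Dotted lines lie 10 points from equal rank: 3 regions are above the upper line and 7 below the lower one, and each of these is named.

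Higher in db/db was the promoter of Nqo1 (chr8:107402848-107403671), with a signal of 10.8 in control and 13.1 in db/db, which moved from rank 49.4 to 68.1, a change of 18.7 points. An intronic region of Txnrd1 (chr10:82894230-82894781) had signals of 9.11 and 11.1 and moved from rank 35.4 to 54.3, or by 18.8 points, and the nearest coding start to it is that of Eid3. The promoter of Gpx3, a secreted glutathione peroxidase, had signals of 14.6 and 16.6 and moved by 11.2 points. These were the 3 regions at or beyond 10 points, and a second promoter region of Mafk (9.38 points) and the promoter of Sod1 (8.75 points) came just short of it. Ranked by −log10 p, these last were at 18.9 points for Mafk and 3.14 for Sod1.

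Lower in db/db was most of all the promoter of Fth1, the ferritin heavy chain (chr19:9982256-9983426 in control), with a signal of 15.8 in control and 11.2 in db/db and a change of -24.5 points. Ranked by the deposited −log10 p in place of the signal, its change was -7.14 points, and the highest summit was not the same one in both lists. Mafg had 2 regions in this class, its promoter (-17.6 points, or -8.22 by −log10 p, with signals of 11.6 and 9.22) and a region downstream of it (-24.2 points, signals of 12.5 and 9.12) that lies at the start of Sirt7. The promoters of Gss (-16.7 points), Gstp1 (-13.5) and Prdx6 (-12.7), a peroxiredoxin that works with glutathione, and a region downstream of Srxn1 (-11.6) completed it. The next lower value belonged to an intronic region of Slc7a11, at -9.92 points.

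The promoter sequence of the gene with the largest rise and of the gene with the largest fall among promoters is given from 150 bases before the RefSeq start (GRCm38.p6), 5′ to 3′ along the gene's strand, to show where the opening peaked. Capitals mark the summit of the control and of the db/db region with 5 bases to each side.
Nqo1, chr8:107403206-107403355, minus strand: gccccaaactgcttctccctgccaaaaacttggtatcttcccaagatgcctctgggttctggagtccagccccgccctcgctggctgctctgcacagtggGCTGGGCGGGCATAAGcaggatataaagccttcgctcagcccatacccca
Fth1, chr19:9982496-9982645, plus strand: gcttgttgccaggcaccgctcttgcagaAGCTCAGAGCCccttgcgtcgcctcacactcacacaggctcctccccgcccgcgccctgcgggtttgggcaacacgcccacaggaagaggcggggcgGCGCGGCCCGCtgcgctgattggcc
In Nqo1 the summits lay 45 and 40 bases before the start, so that the marked stretches join, and the region peaked at the same place in both genotypes. In Fth1 they lay 20 bases before the start in control and 117 in db/db. Neither window held TGACNNNGC or TGCGCNC, which says that these letters are not in this window and nothing about sites further away.

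By group the median changes in rank were within 4 points of 0. The regulators had a median change of 0.40 points over 12 regions, with Nfe2l2 at 1.37, the Keap1 promoter at -0.903 and Bach1 at -0.928. The Mafg promoter was at -17.6 and its downstream region, at the start of Sirt7, at -24.2. These 2 of 12 regions (16.7%), both assigned to Mafg, were at least 10 points lower, against 12.8% of all shared regions. Sqstm1, at 7.77, and Mafk, at 9.38 for its second promoter region, were the highest of the group. The glutathione genes had a median of 0.18 over 28 regions, with 14 higher and 14 lower. The thioredoxin genes had a median of -1.97 over 22 regions, promoters and others together, of which 6 were higher and 16 lower in db/db. All shared regions at coding genes had a median of -0.0758, with 15246 higher and 15689 lower. Coding promoters alone had a median of -0.944 with 5169 higher and 7564 lower. Regions at coding genes away from starts had 0.856, with 10082 higher and 8130 lower. Of the 22 thioredoxin regions, 4 belong to Prdx2 but lie nearest to the start of Junb or Rnaseh2a. Some regions of Txnrd1, Txnrd2, Prdx3 and Prdx5 likewise lie nearest to the starts of Eid3, Gnb1l, Sfxn4 and Trmt112. In the group 2 regions (9.09%) passed 10 points downwards and 1 (4.55%) upwards, against 12.8% and 13.3% of all shared regions. The metallothioneins stood at 0.447 over 4 regions, with the Mt2 promoter at 5.87, Mt1 at -3.92 and Mt3 at -0.119. Superoxide and peroxide genes had a median of 1.02 over 5 regions. The 4 regions of quinone and iron genes had a median of 3.31, and this small group holds both the Nqo1 rise and the Fth1 fall.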

How the data were processed

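ATAC-seq peaks of purified Müller cells were used from 1 control and 1 db/db list. No list attached to the other replicate of each genotype was used here, and the RNA-seq samples were not used. Per peak, the authors deposited a score between 540 and 1000, a signal given as fold enrichment, and the −log10 of its p and q. The smallest deposited −log10 p was 2.00. The labels name the build mm10. The peak caller, its threshold and any pooling of replicates are not given in the sources used here. Strength was therefore compared between the lists only through ranks. Signals of both lists are printed as description and were not compared with each other.

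Overlapping entries (81757 control, 109995 db/db) were merged, keeping the values of the entry with the highest signal. A region belonged to a gene when it overlapped the gene or 5 kb to each side (GENCODE M21, GRCm38), and counted as shared if at least 1 bp of it was covered in the other list. Rank changes used shared regions with 1 partner on each side, a scale chosen after percentiles among all regions had been seen to shift with the length of the list. Shares carry 95% Wilson intervals. For coding genes with equal numbers of regions, the mean over all coding genes with the same number of regions was taken for each gene. Motifs were searched in RefSeq promoter windows of GRCm38.p6, and Gclc, Gsr, Gsta4, Prdx6 and Sod3 had none. Named by rule were all regulators and metallothioneins, genes with no promoter region in a list or with a control-only region, and those with the 5 db/db-only regions of highest percentile, with the 5 highest and 5 lowest control promoter percentiles, with the 5 largest rises and 5 largest falls in rank, or with a response element core. Slc3a2, Gpx1, Gpx4, Gstm1, Txn1, Prdx5, Prdx6, Sod3 and Ftl1, the region downstream of Srxn1, the intronic Slc7a11 region at -9.92 points, the markers and the genes outside the 40 were named after their values were seen. Alternatives covered flanks, stricter q values, overlap, equal list lengths, merging, ranks, thresholds and strings. Another marker list is not reported here. The genes, lists and tests were chosen with earlier results of these data known. Python 3.11.15, numpy 2.4.6, scipy 1.17.1, pandas 2.3.3 and matplotlib 3.10.9 were used, and the steps were tested on simulated data.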

Additional observations from a re-analysis of the deposited data

How the results depend on the processing

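No paired analysis was possible because each genotype has 1 peak list. Of 139 values recomputed under other settings, 109 moved by less than the error or factor set for them and 30 moved by more. None of the regions with the 5 largest rises and 5 largest falls in rank changed sign, but these were picked by that same change. Other named regions were not followed through the settings. By percentiles among all regions, the Keap1 promoter was 12.9 points higher in db/db, against -0.903 points in the main ranking. The median rank change, -0.119, was above 0 in 2 of 8 settings, at 0.414 by −log10 p and at 7.06 by percentiles among all regions. Without flanks the share of control-only regions was 0%, and lists reduced to equal numbers gave 10.6% db/db-only regions and a median promoter percentile of 69.5 in db/db. Counting every deposited entry gave 155 control and 190 db/db entries. With ranks from −log10 p the median promoter percentiles were 84.7 and 91.0, and 8 regions were higher and 4 lower by 10 points. Normal scores gave 6 higher and 6 lower regions. When only regions with summits more than 1 kb from any coding start were kept and ranked among themselves, 1 was higher and 3 lower. The count away from every coding start given in the Results kept the ranks among all shared regions, so the 2 counts differ in scale. The share of all such regions under this setting is not reported here. Percentiles among all regions of each list, chosen after seeing the data, gave 26 regions higher and 1 lower of 75, where 44.6% and 2.3% of all shared regions passed. Thresholds of 5 and 20 points, also chosen then, gave 10 and 0 higher and 16 and 2 lower. The shares of all shared regions at these thresholds and with normal scores are not reported here. These counts are therefore not read as a direction of the pathway. A stricter and a looser string found the antioxidant core in 1 and 17 genes (2.86% and 48.6%, beside 3.13% and 45.5% of all genes) and the metal core in 1 and 17 (beside 6.49% and 56.4% of all genes). The causes were not tested. The lists give no read counts, so depth is unknown, and a region missing from 1 list may lie just under its threshold.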

Other observations

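Another 56 genes of the same pathways, which are not among the 40, were looked at in the same way. Their promoters were open for 48 genes in control (85.7%) and 50 in db/db (89.3%), against 58.5% and 61.4% of all coding genes. Among the glutathione transferases and peroxidases, Gpx2, Gsta2, Gsta3, Gstm2, Gstm3 and Mgst2 had an open promoter in neither list, and Gsta1 and Gstm6 had one in db/db alone. None of the 116 control regions of the 56 genes was missing from db/db, against 4.16% of all control regions. This allows a share of up to 2.59% if 3 counts are taken as the limit (Wilson upper bound 3.21%). Of their 160 db/db regions 42 (26.2%) were missing from control, against 31.3% of all db/db regions. Of 115 shared regions 12 (10.4%) were at least 10 points higher in db/db and 21 (18.3%) at least 10 points lower. Over all shared regions these shares were 13.3% and 12.8%. The median change of the 115 regions was -0.184 points.

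The 6 genes that supply NADPH, the reductant that glutathione and thioredoxin reductases draw on, were open at every promoter in both lists. Pgd and Idh1, which make NADPH in the pentose phosphate pathway and from isocitrate, were at percentiles 99.8 and 99.4 in control. None of the 15 db/db regions of these 6 genes was found in db/db alone, against 31.3% of all db/db regions. Of their 13 shared regions 4 (30.8%) were at least 10 points lower in db/db and 1 higher, with a median change of -2.70 points, beside 12.8% lower and 13.3% higher of all shared regions. With 13 regions these shares are imprecise. Hmox1, which degrades heme and is a classical NRF2 target, had its promoter at percentile 71.5 in control and 65.2 in db/db. The antioxidant core TGACNNNGC was present in 14 of the 50 other pathway genes with a RefSeq promoter (28%), beside 14.8% of all genes.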
